A study of Homo sapiens with 24 samples.

Results

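In HUDEP-2 cells whose TR4 protein carries an epitope tag, chromatin was profiled with an antibody against TR4 itself and with an antibody against the MYC epitope of the tag, so that the same protein was read in 2 ways. The 6 libraries, 3 with each antibody, gave 10640 regions that 2 or 3 libraries of one antibody shared, of 72221 regions in the whole series. A region is a stretch where peaks of any of the 24 libraries share at least 1 base, and regions that overlap a peak of an IgG library were left out. HUDEP-2 is an established human line of erythroid progenitors, and in the assay, CUT&RUN, a nuclease tethered to the antibody releases the DNA next to the bound protein for sequencing. Clone T carries TR4 (gene NR2C2) with 3 FLAG and 3 MYC copies, clone B carries BCL11A with 3 HA and 3 MYC copies, and clone TB carries both tagged proteins. Libraries with TR4 or MYC antibody in clone T are compared here. The other 15 target libraries (MYC and HA antibody for clone B, and TR4, MYC and HA antibody for clone TB) had no part in choosing the regions. IgG gave 1 library per clone. Each clone is 1 edited clone, all were grown alike with no added treatment, and every library started from the same number of nuclei. The labels do not say whether 1 or both copies of NR2C2 carry the tag. Nor do they say whether a group's 3 libraries stem from different cultures. Each p-value therefore rests on the spread between these libraries alone, which may be technical.

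TR4 is an orphan nuclear receptor that, with its relative TR2, binds direct repeats of the AGGTCA hexamer and is known in erythroid cells as part of a repressor complex at the embryonic and fetal globin genes. The MYC epitope is a short peptide of the human MYC protein, a transcription factor that binds the E-box CACGTG together with MAX and drives genes of growth and ribosome production. An antibody against the epitope can therefore find the tagged TR4 and, in principle, the cells' own MYC. A region found with the MYC antibody and not with the TR4 antibody is for that reason a candidate for the cells' own MYC protein, and the other clones allow such candidates to be checked.

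Promoters that hold the TR4 recognition repeat inside a region of both antibodies are shown first by sequence. They were picked for the repeat, and those shown were then taken by strength. The repeat searched was a pair of GGTCA copies with 2 bases between them (DR1), on either strand. The stretches below are RefSeq promoter sequence (GRCh38.p14), 5′ to 3′ on the gene's strand, end before the gene's start, and have the repeat in capitals. They come from the 6 genes with the strongest peaks among the 7 whose repeat lies before the start. The gene not shown is MACROH2A1, at a mean fold percentile of 75.4.
WDR7: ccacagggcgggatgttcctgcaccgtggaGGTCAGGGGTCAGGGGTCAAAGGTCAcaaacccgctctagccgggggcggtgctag
CCDC51: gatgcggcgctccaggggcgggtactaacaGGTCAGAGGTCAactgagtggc
PHACTR2: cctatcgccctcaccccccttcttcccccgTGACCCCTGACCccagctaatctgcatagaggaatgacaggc
RAB11FIP2: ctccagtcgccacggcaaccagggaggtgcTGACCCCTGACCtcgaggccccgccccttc
PPIH: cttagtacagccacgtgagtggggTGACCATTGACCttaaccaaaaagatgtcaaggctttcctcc
SRCAP: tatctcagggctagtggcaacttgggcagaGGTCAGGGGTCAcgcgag
WDR7 (chr18:56651609-56651694, plus strand) holds 3 overlapping matches, that is, a run of GGTCA copies. CCDC51, which encodes a mitochondrial potassium channel, is on the minus strand (chr3:48440120-48440171) and shares the site with the divergent gene TMA7. PHACTR2 (chr6:143677893-143677964, plus strand), PPIH (chr1:42658173-42658238, plus strand), a cyclophilin of the spliceosome, and RAB11FIP2 (chr10:118046942-118047001, minus strand), a partner of the trafficking protein Rab11, hold it on the opposite strand to the gene. SRCAP (chr16:30699123-30699170, plus strand) encodes a chromatin remodeller, and its repeat ends 6 bases before the start.

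All 6 libraries of clone T had a peak at each of the 12 genes whose DR1 lay in a region of both antibodies. By the choice of such regions, at least 2 libraries of each antibody had one. Of all 6976 regions of both antibodies, 2757 (39.5%) had a peak in all 6 libraries. At WDR7 the TR4-antibody libraries had folds of 299.98, 275 and 125 and the MYC libraries 422, 414 and 143 (replicates 1, 2 and 3). At CCDC51 they were 181, 234 and 100.3 with the TR4 antibody and 228, 223 and 84.9 with the MYC antibody. At SRCAP they were 55.9, 65.6 and 25.7 against 59.9, 74.7 and 19.4. These folds are the authors' own value for each peak against the peak caller's background and describe a peak within its list. Replicate 3 was lowest with either antibody at all 3 genes. The distance from the nearest repeat to the summits, as the median over the 6 libraries, was 1.5 bases at WDR7, 3.5 at PHACTR2, 5.5 at SRCAP, 7.5 at RAB11FIP2 and 28 at CCDC51. It was at most 50 bases at 11 of the 12 genes, and 196.5 bases at PPIH. In clone TB, 11 of the 12 had a peak in all 3 TR4-antibody and all 3 MYC libraries, beside 2416 of the 2757 regions called in all 6 libraries of clone T.

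Of the 22078 promoter windows of protein-coding genes (250 bases before to 50 after a start), 24 held the DR1, and 13 of these 24 (54.2%) overlapped a region of both antibodies, beside 4219 of all windows (19.1%). These regions were split by fold percentile into 5 equal groups. Of the 1159 windows at the strongest of the 5, 12 (1.04%) held the DR1, beside 0.109% of all windows, and none of the 744 at the weakest did. The AGGTCA hexamer was in 19.2% of windows at the strongest group, in 7.93% at the weakest and in 11.9% of all windows. At all regions of both antibodies it was in 12.1%, below the 14.2% of windows without a peak in any target library. It was in 30.9% of the 110 windows at the 100 strongest regions. No DR1 lay in the 799 windows of regions found with the MYC antibody alone or in the 500 windows of those found with the TR4 antibody alone. With 24 matches in 22078 windows, sets of this size can hold none, and no difference is read from these zeros. The ETS motif CCGGAAG was in 39.3% of windows at the strongest group, 28.6% at all regions of both antibodies and 12.8% of all windows. These counts describe letters in a window, carry no test and do not show that a factor bound there.

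The lists of the 2 antibodies did not differ in length or in place beyond the spread between libraries. The TR4-antibody lists held 8832, 14924 and 5602 peaks and the MYC lists 13205, 14263 and 4621. The ranges overlapped, with the shortest list from replicate 3 for both. The means were 9786 ± 4734 and 10696 ± 5288 (SD, n = 3 each), and the difference, TR4 minus MYC, was -910 peaks (exact permutation test, two-sided, p = 1, adjusted p = 1 over 6 comparisons; 3 libraries against 3 cannot go below 0.1). Sequencing depth is unknown, and the length of a list stands nearest to it. Gene ends lay within 1000 bases of 59.96%, 52.5% and 54.8% of the peaks with the TR4 antibody and of 49.4%, 49.3% and 56.8% with the MYC antibody (protein-coding genes, start or 3′ end). Replicate 3 of MYC lay above 2 of the 3 TR4-antibody libraries. The means were 55.8% ± 3.82 and 51.8% ± 4.31 (SD, n = 3 each). They differed by 3.95 percentage points (p = 0.3 by exact permutation, two-sided, adjusted p = 0.9). Across the IgG lists the same share was 2.36 to 4.16%. Peak widths were alike, with a mean of the lists' medians of 139 bases for either antibody (exact permutation test, two-sided, p = 1).

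Most regions of either antibody were regions of both. Of 8008 TR4-antibody regions and 9608 MYC regions, 6976 were shared, which is 87.1% of the former and 72.6% of the latter. MYC alone found 2632 regions and TR4 alone 1032. Of the 6976 shared regions, 2757 had a peak in all 6 libraries. Absence was seldom complete: of the 2632 regions of MYC alone, 1862 (70.7%) had a peak in 1 TR4-antibody library, which was replicate 2, the longest list, in 1695 of them. The other 770 had no TR4-antibody peak in clone T. Of the 1032 regions of TR4 alone, 691 (67.0%) had a peak in 1 MYC library and 341 had none. Among 21170 regions with a peak in any of the 6 libraries, 20 had 3 MYC peaks and no TR4-antibody peak (0.0945%), and 29 had 3 TR4-antibody peaks and no MYC peak (0.137%). With 3 libraries against 3, a test of 1 region cannot go below 0.1, so none was run.

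**Figure D1:**
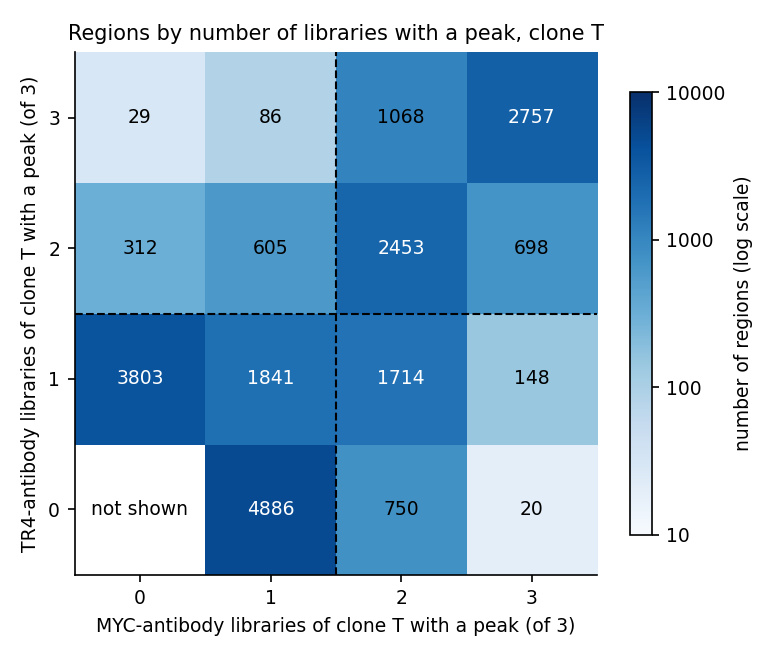
Number of regions by how many of the 3 MYC-antibody libraries (horizontal) and of the 3 TR4-antibody libraries (vertical) of clone T had a peak, with colour on a log scale and dashed lines at the limit of 2 libraries. The upper right block holds the 6976 regions of both antibodies, 2757 of them in all 6 libraries, and the corners with 3 libraries against none hold 29 and 20.

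The excess of MYC alone over TR4 alone went with the length of the lists. With every list held to its 4621 strongest peaks, MYC alone numbered 782 and TR4 alone 755, beside 3313 of both, and the shared part was 81.4% of TR4-antibody regions and 80.9% of MYC regions. When a peak was needed in all 3 libraries, TR4 alone was the larger class, with 1183 regions against 866. With replicate 3 of both antibodies left out, the classes were 6753, 2711 and 965. Leaving out 1 long list moved MYC alone and TR4 alone most of these settings, since the group must then have a peak in both lists left, of which replicate 3 is short. For regions of both antibodies the need for all 3 libraries moved the count most, to 2757. Both, MYC alone and TR4 alone were 4007, 5601 and 192 without TR4 replicate 1, and 3835, 5773 and 136 without TR4 replicate 2. They were 3487, 230 and 4521 without MYC replicate 1, and 3466, 207 and 4542 without MYC replicate 2.

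The 6 libraries did not separate by antibody at their full length. The mean Jaccard index, the regions that 2 libraries share over the regions that either has, was 0.410 within the TR4 antibody, 0.373 within the MYC antibody and 0.426 between them. The within minus between gap of -0.0351 did not pass (exact permutation test, one-sided, p = 0.6, adjusted p = 0.9). The highest index was between TR4 replicate 2 and MYC replicate 2, the longest lists (0.579), and the lowest between TR4 replicate 2 and MYC replicate 3 (0.253). At equal list length the gap was 0.0275, with p = 0.1 (exact permutation test, one-sided), the smallest that the design allows.

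Sharing followed the strength of a peak. Each list was split by q into 10 equal groups. In the strongest group of the MYC lists, 99.8%, 99.4% and 100% of peaks lay in a TR4-antibody group region (replicates 1, 2 and 3). In the weakest group the share was 11.99%, 10.7% and 45.2%. From the TR4-antibody side it was 99.2%, 98.3% and 100% in the strongest group and 57.4%, 17.3% and 37.8% in the weakest. The order of the replicates thus differed between the antibodies in the weakest groups, where the shortest MYC list and the TR4-antibody list of replicate 1 kept the largest shares. Regions of MYC alone had weak peaks: their median fold was 7.02 and 7.35 in MYC replicates 1 and 2, against 12.2 and 13.1 for regions of both in those libraries. Regions of TR4 alone had medians of 7.42 and 8.15 in TR4-antibody replicates 1 and 2, against 11.6 and 13.8 for regions of both.

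**Figure D2:**
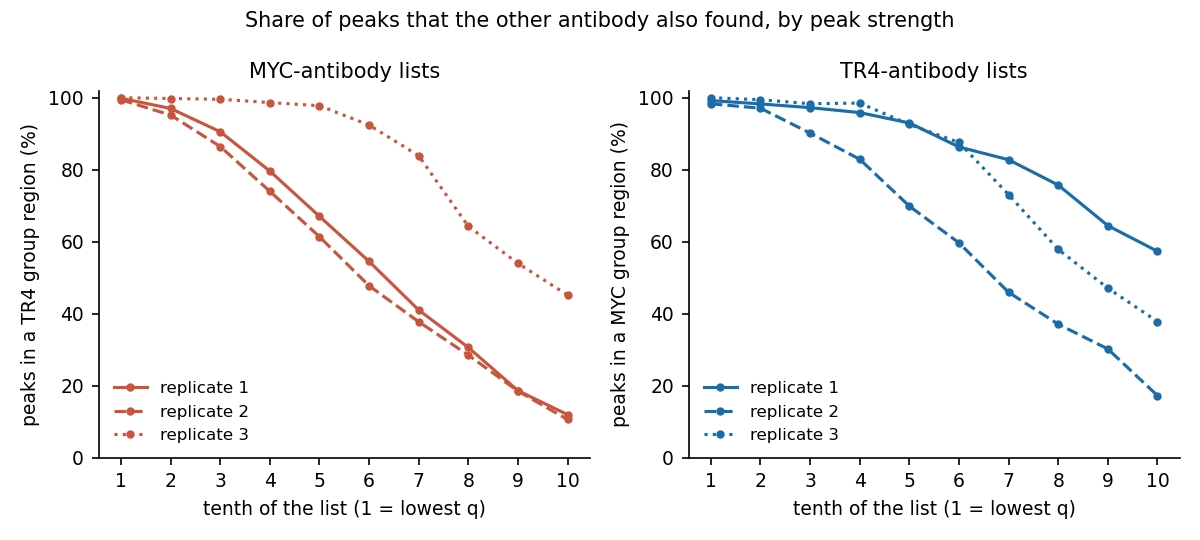
Share of a list's peaks (percent, vertical) that lie in a group region of the other antibody, by peak strength in 10 equal groups of the list, from the lowest q and so the strongest peaks (1) to the highest q (10). Each line is 1 library. All 6 lines start between 98.3% and 100% and end between 10.7% and 57.4%.

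Where both antibodies had a peak, the peaks stood at nearly the same base. Over the 2188 regions with exactly 1 peak in each of the 6 libraries, the median distance between summits was 13 to 21 bases for the 9 pairs of a TR4-antibody and a MYC library. It was 11 to 18 bases for the pairs of libraries with the same antibody, 3 for TR4 and 3 for MYC. The Spearman correlation of the folds over these regions was 0.72 to 0.83 between antibodies and 0.78 to 0.90 within one, as a description over regions that share libraries.

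The 8 strongest regions of both antibodies had peaks at folds from 115 to 660 in the 6 libraries. Regions are named by the protein-coding gene whose end is nearest, which need not be a target. The highest mean percentile was at SMARCD2, a subunit of the SWI/SNF remodeller (chr17:63842601-63843515), with folds of 346, 496 and 223 in the TR4-antibody libraries and 619, 660 and 299 in the MYC libraries (replicates 1, 2 and 3). At the shared start of LNP1 and TOMM70, a receptor of mitochondrial import (chr3:100400940-100402125), they were 348, 494 and 208 against 562, 657 and 239. At EIF3M, a subunit of translation initiation factor 3 (chr11:32583528-32584758), they were 455, 626 and 235 against 514, 517 and 149. The MYC fold was the higher one in all replicates at SMARCD2 and LNP1, while at EIF3M the TR4-antibody fold was higher in replicates 2 and 3. RPL27, a protein of the large ribosomal subunit, had 241, 333 and 123 against 427, 445 and 159. The other 4 of the 8 strongest lay nearest to ZNF529, NFXL1, PYM1 and TP53INP1.

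The gene of TR4 itself was among the strongest. At NR2C2 (chr3:14947583-15049273) the folds were 214, 269 and 139 with the TR4 antibody and 321, 365 and 161 with the MYC antibody. At NR2C1, which encodes TR2, they were 107, 181 and 71.2 against 192, 138 and 60.2. Neither gene lacked a peak in any library of clone T. TRIM28, a corepressor, had folds of 29.4 ± 10.8 with the TR4 antibody and 30.4 ± 11.8 with the MYC antibody (SD, n = 3 each). HBG1, HBG2 and HBB, the fetal and adult globin genes, had no peak within 1000 bases of an end in any of the 6 libraries, although the MYC and HA libraries of clone TB had one at all 3 genes in 3 of 3 libraries each. BCL11A had a peak in 2 of 3 libraries with either antibody.

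Among the 2757 regions called in all 6 libraries, ranking each library's folds within these regions allows strength to be compared without the length of the lists. Every MYC rank lay above every TR4-antibody rank in 307 regions (11.1%), and every TR4-antibody rank above every MYC rank in 338 (12.3%). Of all possible orders of 3 ranks against 3, a share of 0.1 has 1 antibody wholly above the other, both directions together. That share takes the 6 libraries as interchangeable, while peaks of same-numbered libraries deviated together (correlations 0.106, 0.080 and 0.259). The counts are therefore not measured against it. The comparison of ranks was added after the data had been seen, and its counts carry no test. The largest differences were on the TR4 side: the 8 leading regions differed by 53.5 to 81.5 percentile points there and by 36.1 to 45.2 on the MYC side. At FARP2 (chr2:241355410-241356362), the folds were 111, 133 and 50.4 with the TR4 antibody and 11.9, 10.7 and 6.22 with the MYC antibody. At CHAF1B, a subunit of chromatin assembly factor 1 (chr21:36385246-36385510), they were 28.2, 39.2 and 19.2 against 10.8, 7.45 and 5.40. At ZNF784 (chr19:55624124-55624785) they were 37.8, 45.9 and 17.2 against 8.77, 10.6 and 4.36. In these 3 regions the lowest TR4-antibody fold exceeded the highest MYC fold. TMEM52, INAFM1, SLC38A8, FAM53A and NSUN5 completed the 8. On the MYC side, SNRNP70, a protein of the U1 spliceosome particle (chr19:49085073-49085491), had 10.5, 14.4 and 13.6 with the TR4 antibody and 30.7, 37.1 and 18.1 with the MYC antibody. KCNN4, the calcium-activated potassium channel of red cells (chr19:43774530-43774801), had 14.6, 17.8 and 7.04 against 30.3, 32.5 and 14.7. At KCNN4 the groups overlapped in fold, since MYC replicate 3 lay under TR4 replicate 2, but not in rank. BCKDK, AGPAT3, CA1, BOD1, CXXC1 and YPEL2 were the others.

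Clone TB, whose libraries had no part in the choice, showed the same direction in most of these regions. Of the 338 regions that ranked higher with the TR4 antibody in clone T, 320 had a peak in all 6 TR4-antibody and MYC libraries of clone TB. In 271 of those (84.7%) the mean TR4-antibody rank was again higher, beside 51.3% of all 2416 regions with such peaks. Of the 307 on the MYC side, 260 had all 6 peaks and the MYC rank was again higher in 202 (77.7%), beside 48.7% of all. At FARP2 the folds in clone TB were 112, 135 and 55.1 with the TR4 antibody and 12.5, 18.4 and 14.2 with the MYC antibody. At CHAF1B they were 39.4, 52.8 and 25.8 against 11.5, 15.2 and 8.31. TMEM52 kept the direction with a smaller difference, 88.2, 107.6 and 33.0 against 38.6, 40.6 and 29.1. In clone TB the MYC antibody reads tagged BCL11A as well as tagged TR4. In clone B, which has no tagged TR4, FARP2 had median folds of 40.6 with MYC and 31.2 with HA. The shares in clone T moved by more than 1.5 times with 1 library left out only on the MYC side, to 18.4% without TR4 replicate 3 and 19.6% without MYC replicate 3, where fewer ranks have to be in order.

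**Figure D3:**
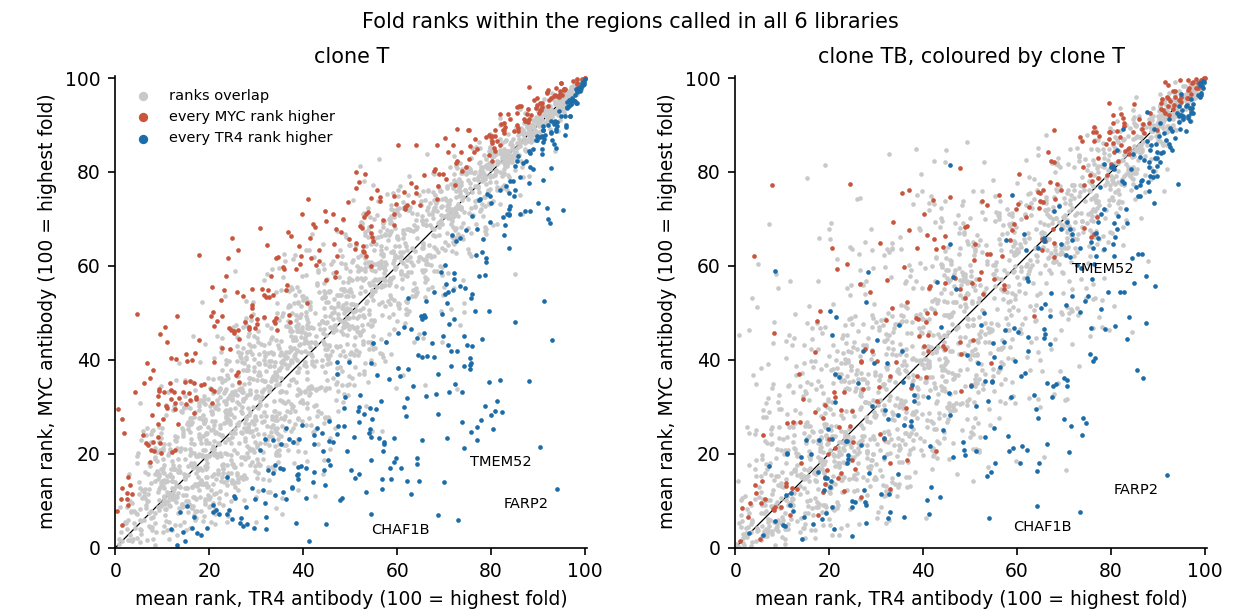
Mean rank of the fold with the TR4 antibody (horizontal) and with the MYC antibody (vertical), 100 being the highest, for the 2757 regions called in all 6 libraries of clone T (left) and for the 2416 of them called in all 6 libraries of clone TB (right). Points are coloured by the order of the 3 against 3 ranks in clone T, and FARP2 lies far below the line of equal ranks in both clones.

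The promoters of 3 of the 8 regions that led on the TR4 side hold the TR4-antibody summit before the gene's start, and they are shown because none has an E-box, an AGGTCA hexamer or a DR1 in its window. Each stretch covers 30 bases either side of the median TR4-antibody summit, with GGGCGG or its complement (the GC box bound by Sp1 proteins) in capitals.
TMEM52: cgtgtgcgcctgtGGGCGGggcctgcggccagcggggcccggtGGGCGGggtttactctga
CHAF1B: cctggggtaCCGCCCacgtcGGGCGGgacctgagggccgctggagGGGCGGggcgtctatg
INAFM1: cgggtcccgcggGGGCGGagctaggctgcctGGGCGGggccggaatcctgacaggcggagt
These are chr1:1919365-1919425 (minus strand), chr21:36385294-36385354 (plus strand) and chr19:47274243-47274303 (plus strand). The median MYC summit lay outside the stretch at TMEM52 (1919475) and inside it at CHAF1B (36385324) and INAFM1 (47274291). The GC box was searched after the sequences had been read. It was in 85.7% of the 272 windows at regions where the TR4-antibody ranks were higher and in 80.0% of the 200 where the MYC ranks were higher. Of all windows 56.3% held it, and of those at regions of both antibodies 79.6%. The AGGTCA hexamer was in 35 of the 272 windows and in 36 of the 200.

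Regions found with MYC and in no TR4-antibody library of clone T were weak and mostly away from gene ends. Of these 770 regions, 224 (29.1%) lay within 1000 bases of a gene end, beside 62.0% of regions of both antibodies. CLK3, a kinase of splicing factors (chr15:74610363-74610792), was the 1 region of the 8 strongest with all 3 MYC libraries, at folds of 10.8, 10.6 and 8.59. It was also found by every MYC and every HA library of both other clones, and by no TR4-antibody library of clone TB. ANO1, a chloride channel (chr11:70177412-70177538), had 18.9 and 36.1 in MYC replicates 1 and 2, and a peak in 2 TR4-antibody libraries of clone TB. NFIC, a nuclear factor I protein (chr19:3357972-3358191), had 16.2 and 24.8, and none of the 15 libraries of the other clones had a peak there. Near TFRC, the transferrin receptor (chr3:195990257-195990441, 58843 bases from the gene), the folds were 17.8 and 16.2, with peaks in 3 HA libraries of clone TB and 2 of clone B. ZNF747, PTPN3, ZFPL1 and HEATR6 were the other 4 of the 8, and HEATR6 had a peak in 3 of 3 TR4-antibody libraries of clone TB. The 8 strongest regions thus differed in where else they were found.

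Regions found with the TR4 antibody and in no MYC library of clone T numbered 341, and 165 of them (48.4%) lay at gene ends. RRP7A, a ribosome assembly factor (chr22:42500188-42500578), had folds of 17.5, 21.5 and 14.3 in TR4 replicates 1, 2 and 3. GARNL3 (chr9:127224896-127225214) had 21.6, 27.2 and 10.2, and EOLA2 (chrX:149939272-149939766) had 21.6, 17.9 and 8.86. Each of the 8 strongest had a peak in all 3 TR4-antibody libraries. GALNS, a lysosomal sulfatase, ADAMTS10, a metalloprotease, NSMF and PDE9A, a cyclic GMP phosphodiesterase, were also among them. In clone TB, GALNS and ADAMTS10 had a peak in 3 of 3 MYC libraries, RRP7A, GARNL3 and NSMF in 1, and EOLA2 and PDE9A in 0. Of the 341 regions, 66.4% ± 8.48 had a peak in the MYC libraries of clone TB and 46.4% ± 22.2 in its TR4-antibody libraries (SD, n = 3 each). There the MYC antibody also reads tagged BCL11A.

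**Figure D4:**
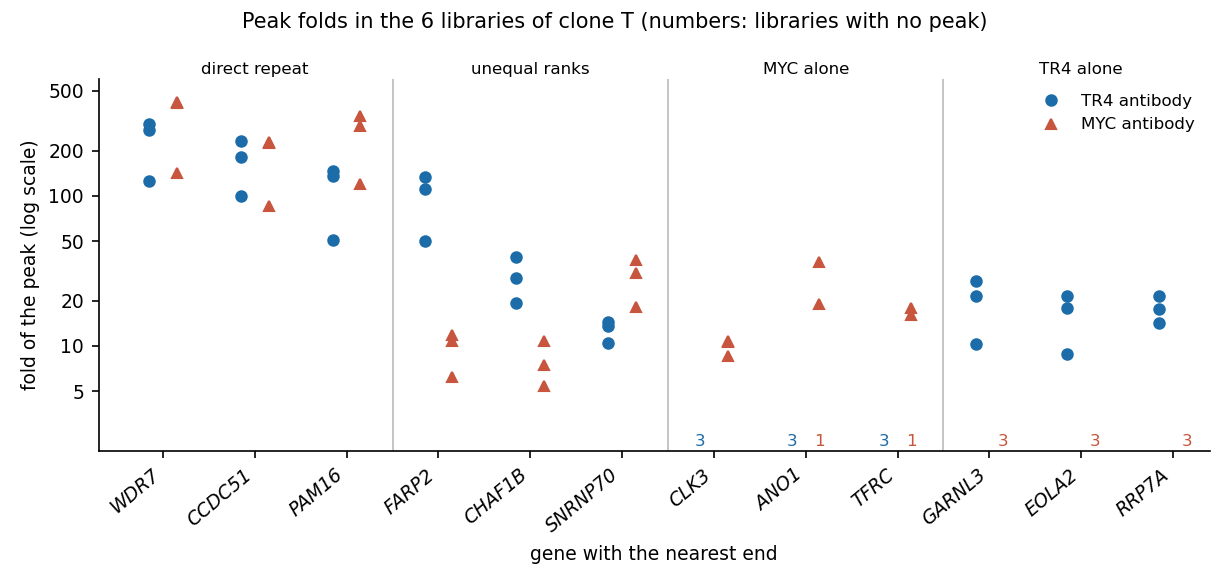
Folds of single peaks (log scale) in the TR4-antibody (circles) and MYC-antibody (triangles) libraries of clone T at 12 regions, 1 point per library, with a number at the foot for libraries without a peak. The direct repeat regions have both antibodies at high folds, FARP2 and CHAF1B have the TR4 antibody higher in all 3 libraries, and the 6 regions on the right have 1 antibody only.

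Few regions kept to 1 antibody in both clones with tagged TR4. Peaks in at least 2 TR4-antibody libraries of clone T and of clone TB, with none in the 6 MYC libraries, were found in 18 regions, 3 of them at gene ends. The reverse was found in 227 regions. With no HA peak either, 13 of the 18 and 28 of the 227 were left. The MYC lists of clone TB were longer, with a mean of 23731 peaks against 9981 with the TR4 antibody. In clone TB the MYC antibody also reads BCL11A, which the HA antibody reads. A TR4-antibody peak in 6 of 6 libraries and a MYC peak in 0 of 6 were found in 3 regions, EOLA2 and IBA57, an iron-sulfur cluster assembly factor, among them. IBA57 had folds of 13.4, 13.4 and 6.67 in clone T and 17.9, 11.5 and 7.51 in clone TB, and no peak in an HA library or a MYC library of clone B. EOLA2 had a peak in 1 HA and 1 MYC library of clone B. No region had a MYC peak in 6 of 6 libraries with neither a TR4-antibody nor an HA peak, while 4 had it when HA peaks were allowed. Both antibodies had a peak in all 12 libraries of clones T and TB in 2416 regions.

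In libraries that the classes did not use, regions of MYC alone were found about as often with the MYC as with the HA antibody of clone B, where both read tagged BCL11A. The share with a peak was 64.9%, 67.9% and 35.3% of the 2632 in the MYC libraries and 61.9%, 65.3% and 34.3% in the HA libraries (replicates 1, 2 and 3). The means were 56.0% ± 18.03 and 53.8% ± 16.97 (SD, n = 3 each). They differed by 2.17 points (p = 0.6 by exact permutation, two-sided, adjusted p = 0.9). Replicate 3 was lowest with both antibodies, and the ranges overlapped. The regions of both antibodies gave a like difference, 2.16 points, from 78.2% with MYC and 76.0% with HA. In all, 1985 of the 2632 regions (75.4%) were found by 1 or more of the 6 HA libraries. This was less often than regions of TR4 alone (895 of 1032, 86.7%) and regions of both (6364 of 6976, 91.2%). The HA epitope is on BCL11A and not on TR4.

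In clone TB, regions of MYC alone were found more often with MYC than with the TR4 antibody. The means were 70.1% ± 7.74 and 29.3% ± 14.4 (SD, n = 3 each), and every MYC library lay above every TR4-antibody library (difference 40.8 points, exact permutation test, two-sided, p = 0.1, the smallest possible, adjusted p = 0.6). With equal list lengths the difference was 2.39 points, also at p = 0.1 (exact permutation test). The MYC lists of clone TB were longer, 20928 to 25738 peaks against 6944 to 11510, and they read BCL11A too. Regions of TR4 alone followed the same order in clone TB, with 76.3% ± 7.53 for MYC and 47.6% ± 21.1 for the TR4 antibody (SD, n = 3 each). In each of the 15 libraries, regions of TR4 alone were found more often than those of MYC alone, and regions of both more often than those of TR4 alone.

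**Figure D5:**
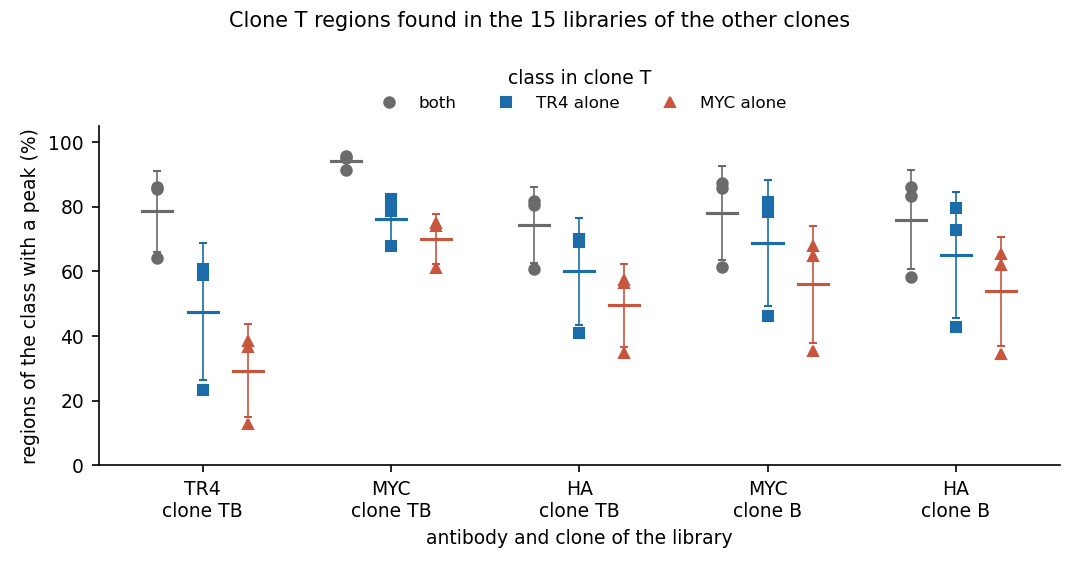
Percent of the clone T regions of each class (both, TR4 alone, MYC alone) that had a peak in each library of clones TB and B. Points are single libraries, bars the mean and whiskers 1 SD (n = 3). Regions of MYC alone lie lowest in every group, from 29.3% with the TR4 antibody to 70.1% with the MYC antibody of clone TB.

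Few regions had a MYC peak in clones T and B and no TR4-antibody or HA peak anywhere. Of the 9608 MYC regions of clone T, 770 had no TR4-antibody peak in clone T, 236 of these had no HA peak in clone B or TB, and 196 had no TR4-antibody peak in clone TB either. Of the 196, 22 had a peak in at least 1 MYC library of clone B, 7 in at least 2, and 117 had no MYC peak in either other clone. The 7 lay nearest to SP4, RREB1, LOC124904951 (within DNAJC5), ZNF707, SIGLEC5, H2BC5 and ARID3A, and none was within 1000 bases of a gene end. Their folds were 4.17 to 8.39 in MYC replicates 1 and 2 of clone T, and replicate 3 had a peak at none. The region nearest to SP4, a Sp-family transcription factor (chr7:21335015-21335161, 92922 bases from the gene), had 5.44 and 8.39 in clone T and 6.17 and 7.37 in clone B. The region nearest to RREB1, a zinc-finger factor (chr6:7026019-7026225, 81518 bases from the gene), had 6.48 and 6.78 in clone T. Its folds were 4.98 and 5.83 in MYC replicates 2 and 3 of clone B, and 6.31 and 4.101 in those of clone TB. RREB1 and SIGLEC5 were the 2 with a peak in at least 2 MYC libraries of clone TB. All 7 were weak: their median fold in MYC replicate 1 was 5.74, at percentile 23.5 of the list. The number turned on single lists. Leaving out MYC replicate 1 or 2 of clone T gave 0, and for clone B the same gave 1 and 0. It was 14 without TR4 replicate 2 of clone T, and 16 and 17 without HA replicate 1 and 2 of clone B. With equal list lengths 1 region was left, and with all 3 MYC libraries of both clones required, none.

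With no test, the E-box was somewhat more frequent at promoters of MYC alone as a whole than at those of the other classes. It was in 13.5% of the 799 promoter windows at regions of MYC alone, 11.6% of the 500 at regions of TR4 alone, 10.9% at regions of both and 8.32% of all 22078 windows. The excess was not seen at MYC alone with no TR4-antibody peak, where 18 of 163 windows (11.04%) held the E-box. At TR4 alone with no MYC peak, 16 of 142 windows (11.27%) held it. Of the 744 windows at the weakest of the 5 groups of both, 12.5% held it. In clone B it was in 11.3% of windows at MYC regions and 11.5% at HA regions. Windows without a peak in any target library had it in 5.80%. Within 50 bases of the summit, it lay at 5.74% and 7.09% of the MYC summits of MYC alone in replicates 1 and 2 (29 of 505 and 36 of 508). The MYC summits of regions of both antibodies had it at 4.32% and 4.23%, and the TR4-antibody summits of TR4 alone at 3.37% and 4.02%. Where regions of MYC alone had a TR4-antibody summit, the E-box lay at 12.1% and 5.49% of these (4 of 33 and 20 of 364). Only summits inside a promoter window were read, and sequence at the 7 candidate regions was not analysed here. In MYC-alone regions with no TR4-antibody peak, 17 E-boxes lay in 16 regions, and the stretches below are from the 4 strongest with the E-box (in capitals) before the start, since these are the promoters where the cells' own MYC would be sought first.
CLUAP1: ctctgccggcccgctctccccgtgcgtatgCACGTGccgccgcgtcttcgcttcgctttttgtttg
IPO7: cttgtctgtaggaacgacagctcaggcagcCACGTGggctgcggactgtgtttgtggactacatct
SPNS1: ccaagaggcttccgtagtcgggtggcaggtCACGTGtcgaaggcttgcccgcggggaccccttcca
MCCC2: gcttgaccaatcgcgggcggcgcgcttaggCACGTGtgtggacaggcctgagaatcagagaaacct
They are chr16:3500884-3500949, chr11:9384484-9384549, chr16:28974696-28974761 and chr5:71587247-71587312, all on the plus strand. The folds in MYC replicates 1 and 2 were 14.4 and 11.7 at CLUAP1, 11.5 and 7.07 at IPO7, an importin, 9.18 and 8.23 at SPNS1, a lysosomal transporter, and 7.02 and 9.19 at MCCC2, a subunit of methylcrotonyl-CoA carboxylase. All 4 also had a peak in HA libraries of clone B: 3 at CLUAP1, 2 at IPO7, 3 at SPNS1 and 1 at MCCC2. None of the 4 was therefore among the 7 regions with no HA peak. TR4-antibody libraries of clone TB had a peak there too, 1 at CLUAP1, 2 at IPO7, 0 at SPNS1 and 2 at MCCC2. The median distance from the E-box to the MYC summits was 56, 68.5, 32.5 and 15.5 bases in the same order. At CLUAP1 and IPO7 it was thus over 50 bases.

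By gene, 25.5% of 20037 protein-coding genes had a TR4-antibody region within 1000 bases of an end and 27% a MYC region. A MYC region and no TR4-antibody region was found at 4.04% of genes, and the reverse at 2.56%. Of 392 olfactory receptor genes, which are silent in blood cells, none had a region of either. The gene lists were chosen with earlier results of these data known and carry no test.

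Among genes that MYC is known to drive, most of those with a region of one antibody had one of the other, as was so among all genes. Of all 20037 protein-coding genes, 5406 had a MYC region, 5109 a TR4-antibody region and 4597 both. Of 40 genes of nucleolus and ribosome assembly, 26 had a MYC region and 21 a TR4-antibody region. All 21 had both, and 5 had a MYC region alone. NOP2, a methyltransferase of ribosomal RNA, had folds of 89.1, 132 and 42.2 with the TR4 antibody and 135, 120.03 and 39.5 with the MYC antibody. GNL3, POLR1B, WDR12 and DKC1 were among the 5 with a MYC region and no TR4-antibody region, and the highest fold at these 4 was 11.3, at POLR1B, a subunit of RNA polymerase I. GNL3 had peaks in 2 TR4-antibody libraries (5.85 and 6.44), but no single region held both. Of 23 classical MYC targets, 13 had a MYC region, 14 a TR4-antibody region and 12 both. CDC25A, a cell-cycle phosphatase, had 86.2, 110 and 33.3 against 79.0, 172 and 60.4. ENO1, a glycolytic enzyme, was the 1 with a MYC region alone, at 7.67 and 5.496 in MYC replicates 1 and 2, beside 6.27 in TR4 replicate 2. Of 79 cytosolic ribosomal protein genes, 46 had a MYC region, 41 a TR4-antibody region and 6 a MYC region alone. RPS25 had 287, 349 and 109 with the TR4 antibody and 315, 341 and 107 with the MYC antibody. RPL39 was a gene with MYC peaks in all 3 libraries (8.61, 12.02 and 7.16) and a TR4-antibody peak in 1 (11.5 in replicate 1).

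Among cytosolic tRNA synthetases, 13 of 20 had a MYC region and 11 a TR4-antibody region. AARS1, CARS1 and FARSB had a MYC region alone, with folds of 3.86 to 7.07, and CARS1 and FARSB had no TR4-antibody peak in clone T. KARS1 had 85.7, 99.6 and 43.2 with the TR4 antibody against 84.9, 94.9 and 46.7 with the MYC antibody. Of 18 genes of nucleotide synthesis, 9 had a MYC region and 10 a TR4-antibody region. UMPS, of pyrimidine synthesis, was the 1 with a MYC region alone, and PPAT, of purine synthesis, had folds of 22.8 ± 8.56 and 24.4 ± 9.99 (SD, n = 3 each). Of 37 genes of respiratory complex I, 18 had a MYC region, 17 a TR4-antibody region and 16 both. NDUFA11 had 72.1, 113 and 50.7 against 137, 142 and 52.7, higher with the MYC antibody in each replicate. NDUFC1 went the other way in each replicate, with 131, 167 and 60.8 against 122, 123 and 42.3. At NDUFS6 and NDUFS1 the order differed between replicates.

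In the MYC network, 11 of 17 genes had a MYC region, 9 a TR4-antibody region and 3 a MYC region alone. The MYC gene was 1 of the 3, with folds of 6.66 and 7.41 in MYC replicates 1 and 2 and 4.11 in TR4 replicate 2. Every HA and MYC library of clones B and TB had a peak there, and no TR4-antibody library of clone TB did. MXI1, a MAX partner that opposes MYC, and MLXIPL, the carbohydrate response factor, were the other two, with MYC folds of 6.78 to 8.10. FBXW7, the ligase that marks MYC for degradation, had 20.4, 23.9 and 12.7 with the TR4 antibody and 28.1, 21.9 and 5.58 with the MYC antibody. Of 23 regulators of fetal globin, 16 had a MYC region and 15 a TR4-antibody region, all 15 with both. EHMT1, a histone H3 lysine 9 methyltransferase, had 60.8, 87.6 and 46.7 against 108, 105.4 and 43.9. MYB was the 1 with a MYC region and no TR4-antibody region, although 2 TR4-antibody libraries had a peak near it (5.52 and 8.00, against 8.36 and 7.58 with MYC), with no single region holding both.

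TR4's partners and relatives gave like counts with either antibody. Of 12 partners and corepressors, 7 had a TR4-antibody region, 6 a MYC region and none a MYC region alone. Of 16 other nuclear receptors of direct repeats, 3 had a region of both antibodies and none of 1 alone. These were ESRRA, NR2F1 and NR2F6, with ESRRA at 111, 172 and 65.4 against 177, 192 and 68.7. Of 8 reported targets of TR2 and TR4, PCK1, of gluconeogenesis, had both, APOE, a lipid carrier, a MYC region alone, and SCD, the stearoyl-CoA desaturase, a TR4-antibody region alone. Their highest folds were 9.75 at PCK1, 14.8 at APOE and 9.43 at SCD, low beside the lists' strongest.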

How the data were processed

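The build is GRCh38 and the tools named are MACS2 2.1.4, SAMtools, Picard, Bowtie2 and Trimmomatic, per the submitters' processing notes, which do not give their roles. For every library 1 narrowPeak list was deposited. Each deposited peak carries the authors' −log10 q-value and their fold over background, a linear ratio. Summit offsets are the other value taken from the deposited lists. From these, peaks of the 24 libraries were merged where at least 1 base was shared, and the 72221 of 79570 regions without an IgG peak were classed by a peak in at least 2 of 3 libraries. Only values per library were tested (exact permutation, scipy 1.17.1, numpy 2.4.6, pandas 2.3.3), adjusted by Benjamini-Hochberg over 6 comparisons. Genes came from a RefSeq table of GRCh38.p14 without strand, so gene ends hold starts and 3′ ends. Promoter windows and sequences are from RefSeq, with 22078 windows for 15743 of the 20037 protein-coding genes, and those of human chromosome 8 and the β-like globin genes were not used here.

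The members and gene lists were chosen with earlier results of these data known. Named regions are the 8 per class that rank first by fold percentile, averaged over the class's libraries with a missing peak as 0. Named genes are NR2C2, NR2C1, MYC, HBG1, HBG2, HBB, BCL11A and, per list, up to 4 with a peak in most of the 6 libraries and up to 4 with a MYC region and no TR4-antibody region. Of these the text gives those it needs, and 1 region is not reported here. The DR1 genes, the 8 regions per side of the rank comparison and the regions of 1 antibody in 2 clones were chosen after their values were seen. Classes and gene-end calls were checked on simulated lists. Alternatives were equal list length, a −log10 q of at least 5, other library minimums, merging, summits, IgG, windows and each library left out.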

Additional observations from a re-analysis of the deposited data

How the results depend on the processing

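The class sizes depended on list length and on the number of libraries needed. Both, MYC alone and TR4 alone numbered 6976, 2632 and 1032. With equal list lengths there were 3313, 782 and 755. A peak in 3 of 3 libraries gave 2757, 866 and 1183, and a peak in at least 1 of 3 gave 11370, 5656 and 4144. With 1 library left out they ranged from 3466 to 6933, from 207 to 5773 and from 136 to 4542. These follow from the number of peaks or libraries asked for. A −log10 q of at least 5, merging over clone T and IgG only, 50 bases either side of the summit and IgG regions kept left each class within 1.5 times.

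The Jaccard gap of -0.0351 turned to 0.0275 at equal list length (exact permutation test, one-sided, p = 0.1) and was -0.0575 to -0.0104 with 1 library left out. The difference in list length, -910 peaks, ranged from -3948 to 1182 and was positive, at 1182, 344 and 873, without TR4 replicate 3, MYC replicate 1 and MYC replicate 2. The gene-end difference of 3.95 points ranged from 1.84 to 6.43 and kept its sign, and promoter windows in place of gene ends gave 3.53, a setting chosen after seeing the data. The difference of MYC minus HA in clone B, 2.17 points, was -0.639 at equal list length and ranged from -7.58 to 12.5, with -2.28, -3.76 and -7.58 without MYC replicates 1 and 2 and HA replicate 3. The cause was not tested. MYC minus TR4 in clone TB, 40.8 points, was 32.5 to 45.4 with 1 library left out and 2.39 at equal list length. Candidates for the cells' own MYC numbered 7, and 1 at equal list length, 0 with 3 of 3 libraries and 0 to 17 with 1 library left out. Without replicate 3 of both antibodies, 26.0% and 22.4% of regions had every MYC rank or every TR4-antibody rank higher, in place of 11.1% and 12.3%. With 1 library left out these were 14.9 to 19.6% and 15.2 to 17.3%. Fewer ranks then have to be in order.

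Same-numbered TR4 and MYC libraries of clone T deviated together with correlations of 0.106, 0.080 and 0.259 over 21170 regions, not all above 0.1, so the numbers were not taken as pairs, although every library correlated best with its own number. With the replicate block (exact sign-flip test, smallest p 0.25) the differences stay as above by construction, at -910 peaks (p = 1), 3.95 points (p = 0.5), 2.17 points (p = 0.25) and 40.8 points (p = 0.25). Of 134 alternative values, 8 changed sign and 32 counts or shares moved by over 1.5 times. The other 94 did neither, though differences among them were judged by sign and side of the threshold, not by size. Depth is unknown, so a missing peak cannot be told from too few reads.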

Other observations

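The contrast between the antibodies was set beside that of clone TB. In clone T the TR4 minus MYC difference in mean list length was -910 peaks, and in clone TB it was -13750, from 9981 against 23731. The difference between the 2 contrasts was 12840 peaks and did not pass (exact permutation of the antibody labels within each clone, 400 arrangements, two-sided, p = 0.07). The gene-end share was 3.95 points higher with the TR4 antibody in clone T and 14.7 points higher in clone TB, a difference of -10.8 points between them (exact permutation, two-sided, p = 0.135). The MYC antibody also reads tagged BCL11A in clone TB.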
